A study of Mus musculus with 16 samples.

Results

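Desmosomes and hemidesmosomes are the plaques by which epithelial cells anchor their keratin filaments. A desmosome joins a pair of neighbouring cells through the cadherins desmoglein and desmocollin, which hold plakoglobin and plakophilins on the cytoplasmic side, and desmoplakin ties these to the filaments. A hemidesmosome instead fixes the cell to the basement membrane through an integrin made of the ITGA6 and ITGB4 chains, whose ligand is a laminin. The 9 genes described here are the desmosome genes DSP (desmoplakin), JUP (plakoglobin), PKP1 and PKP2 (plakophilins), DSG2 (a desmoglein), DSC2 (a desmocollin) and PERP (a membrane protein needed for desmosome assembly), and the hemidesmosome chains ITGA6 and ITGB4. They were taken by name, as the probes whose target name in the deposited table equals that of the gene, which gave 20 of 45281 probes and 9 of 30854 target names. A total of 10 of these probes, for 5 of the genes, were detected (p under 0.05 against control beads) throughout at least 1 group and were tested, against 20880 probes for 14829 genes in the whole table.

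Murine embryonic stem (ES) cells had been kept for 7 days in serum-free medium on PA6 cells, stromal cells from mouse bone marrow, beside PA6 mono-cultures. Some cultures had no growth factors (-GFs), and others had 20 ng/ml of FGF2 or 10 ng/ml of BMP4, a dose that is lower in the methods of the study. For the time with the factor the labels disagree, giving 3 days in one field and 7 in another. Per the methods of the study, the factor was taken away after 3 days. RNA was profiled on Illumina MouseWG-6 v2.0 BeadChips, as 2 -GFs, 3 FGF2 and 2 BMP4 co-cultures and as 3 PA6 mono-cultures per treatment. The labels call the replicates biological. The ES cells carried EGFP at the tau locus per the methods, and co-culture RNA came from both kinds of cells, so that fewer cells of a type and less RNA per cell cannot be told apart. Between 37.3% and 47.0% of probes were detected on an array. Precision is limited by how few arrays a group holds. All 6 pluripotency markers in the table were detected on every co-culture array, whereas in PA6 none was detected on all arrays of a group. Of 7 stromal markers, 6 were detected on all arrays of each co-culture group, with a summed intensity of 43377 to 57406 against 83287 to 123758 in PA6.

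Of the 9 genes, DSP and JUP were the 2 with an entry in the promoter reference used. The reference sequences before their starts are shown for that reason. Both are the 250 bases before the annotated start, on the strand of the gene, from the RefSeq promoter table of build GRCm38.p6, which was matched by symbol. The DSP window lies at chr13:38151044-38151293 on the plus strand and the JUP window at chr11:100397791-100398040 on the minus strand. Capitals mark the palindrome GCCNNNGGC, the letters bound by TFAP2 factors.
DSP: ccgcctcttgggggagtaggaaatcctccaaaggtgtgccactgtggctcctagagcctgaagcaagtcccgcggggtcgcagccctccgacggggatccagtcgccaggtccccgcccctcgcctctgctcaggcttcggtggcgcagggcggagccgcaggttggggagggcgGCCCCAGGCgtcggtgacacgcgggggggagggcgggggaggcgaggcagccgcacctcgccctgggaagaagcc
JUP: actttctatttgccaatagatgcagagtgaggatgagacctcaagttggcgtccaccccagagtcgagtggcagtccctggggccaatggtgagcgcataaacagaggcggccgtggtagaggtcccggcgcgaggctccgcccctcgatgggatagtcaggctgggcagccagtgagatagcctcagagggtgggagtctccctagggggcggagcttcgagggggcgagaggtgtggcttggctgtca

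The palindrome occurred once in the DSP window, beginning 75 bases before the start, and not in the JUP window, and 13.7% of the 32841 promoter windows of this length in the table hold it on either strand. The letters CACCTG, an E-box read by repressors such as SNAI2 and ZEB2 and searched on both strands, occurred in neither window and in 17.2% of all windows. The windows were 72.4% and 62% G and C for DSP and JUP. A match is a match of letters, and binding was not measured here.

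Detection differed among the 9 genes. By at least 1 probe, ITGB4 was detected on all 16 arrays. PKP2, DSG2 and ITGA6 were detected on all 7 co-cultures and on 4, 3 and 2 PA6 arrays. DSP was detected on 4 co-cultures and 1 PA6 array, and the probes of the other 4 genes were at or near background. The JUP, PKP1 and PERP probes were detected on 0 of 16 arrays, and the DSC2 probe on 1, FGF2 replicate 1 of the co-cultures, with a detection p of 0.0492. Their raw intensities were 109 to 166 for JUP, 151 to 216 for PKP1, 110 to 286 for DSC2 and 130 to 195 for PERP, next to a median over all probes of 178 to 232 on these arrays. On the normalized log2 scale they spanned 5.34 to 5.91 for JUP, 5.73 to 6.46 for PKP1, 5.39 to 6.56 for DSC2 and 5.49 to 6.21 for PERP. No change in these 4 genes, each represented by 1 probe, could be measured at this signal, which does not show that their RNA was absent.

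**Figure D1:**
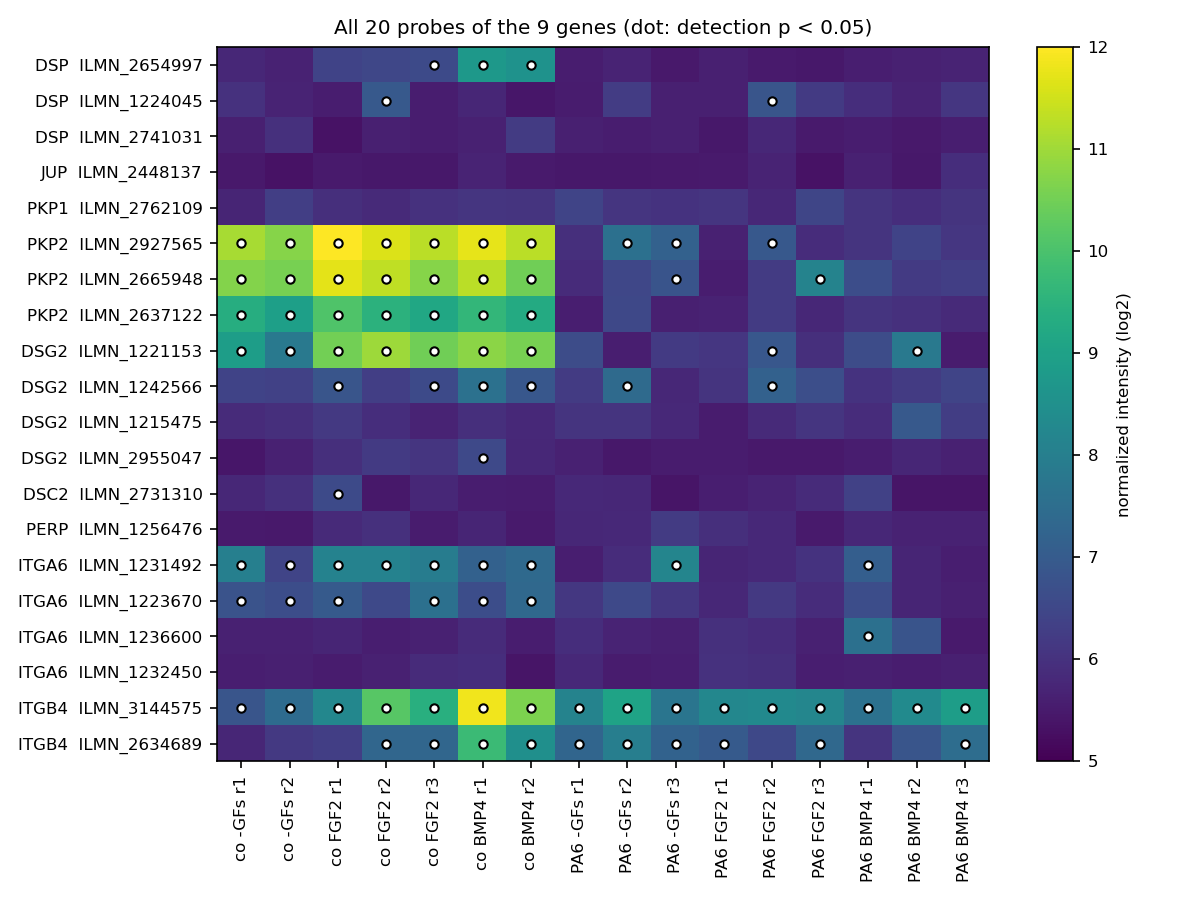
Normalized intensity (colour, log2 scale) of all 20 probes of the 9 genes (rows) on the 16 arrays (columns; co, ES/PA6 co-culture; r, replicate), with a dot where the detection p was under 0.05. The 3 PKP2 probes were detected on all 7 co-culture arrays, whereas the JUP, PKP1 and PERP probes carry no dot.

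In co-cultures, BMP4 raised DSP, DSG2 and ITGB4, and FGF2 raised DSG2 and ITGB4. Calls required a limma adjusted p under 0.1 and a log2 fold change beyond 1 in either direction. With FGF2, 2 of the 5 tested genes were called, both higher, where 7.42% of all 14829 genes were called and 5.07% were called higher. With BMP4, 3 of the 5 were called, all 3 higher, where 3.75% of all genes were called and 2.28% were called higher. DSP passed the detection filter only through the BMP4 co-cultures, where it was high. Its place among the 5 therefore depends on that rise. Both comparisons use the same 2 -GFs arrays, so the changes with FGF2 and with BMP4 are not independent of each other.

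**Figure D2:**
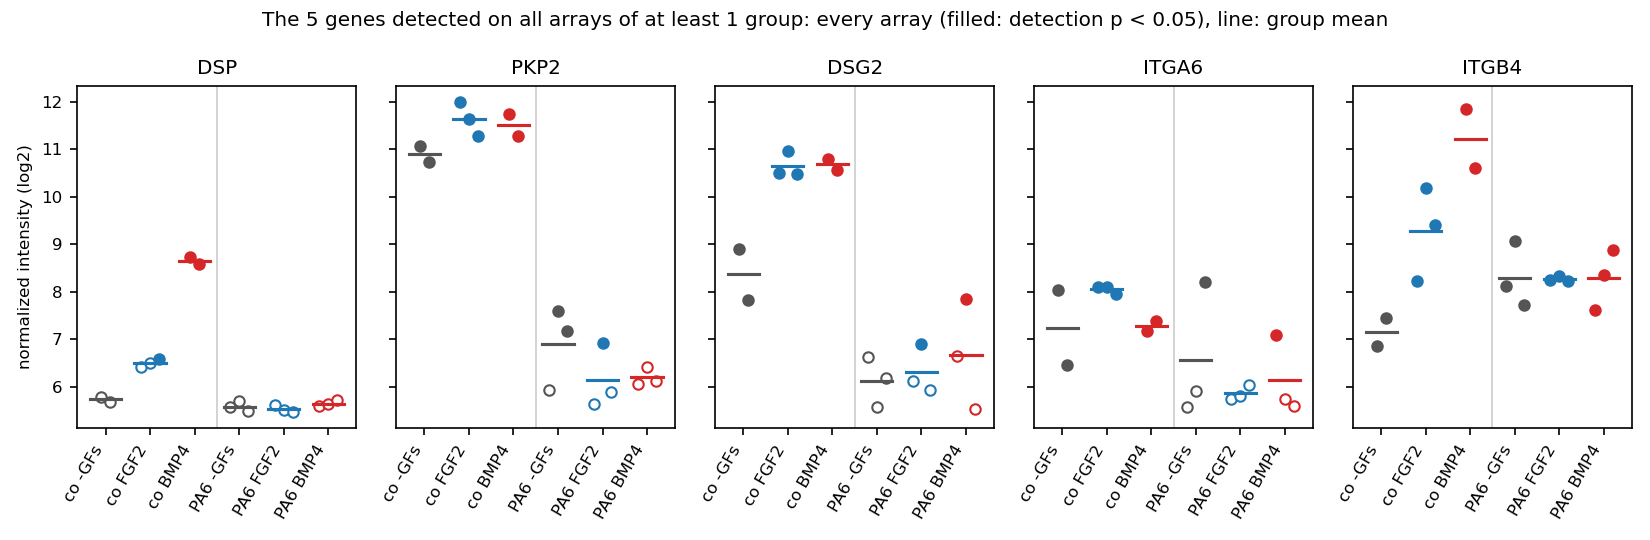
Normalized intensity (log2 scale) of the 5 tested genes on every array, on the probe used for each, by group (co, ES/PA6 co-culture), with filled points where the probe was detected, open points where it was not, and a line at the group mean. DSP stood at 8.57 and 8.72 with BMP4 and at most at 6.57 on every other array, and PKP2 was above 10.7 on all co-culture arrays and below 7.6 on all PA6 arrays.

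DSP, the linker to keratin filaments, was read on the probe with its largest mean (ILMN_2654997) at 5.78 and 5.68 on the 2 -GFs co-cultures, at 6.41, 6.50 and 6.57 with FGF2 and at 8.72 and 8.57 with BMP4. The 3 groups did not overlap, and the probe was detected on both BMP4 arrays, on 1 of the 3 FGF2 arrays and on neither -GFs array. It thus passed the detection filter through the BMP4 co-cultures alone, the group where it was high. BMP4 gave a log2 fold change of 2.92 ± 0.18 (SE; 95% confidence interval 2.50 to 3.34; limma adjusted p = 0.00141), or at least 4.33-fold against the detection level of the -GFs arrays. With FGF2 the log2 fold change was 0.76 ± 0.16 (limma adjusted p = 0.0412), under the fold limit, in a range where most arrays did not detect the probe. BMP4 exceeded FGF2 by 2.16 ± 0.16 (log2; limma adjusted p = 0.0039), and DSP was the 1 gene of the 5 called in that comparison, where 1.44% of all genes were called and 0.755% were called higher. That call was lost with replicate numbers as a block (2.20, limma adjusted p = 0.11). The rise rests on this probe, since ILMN_1224045 read 5.76 and 5.42 and ILMN_2741031 read 5.64 and 6.23 on the BMP4 arrays and neither was detected there. The table gives no positions of the probes in their transcripts.

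PKP2, a plakophilin found in simple epithelia and in heart muscle as well as in stratified layers, was detected on every co-culture array. Its probe (ILMN_2927565) read 11.08 and 10.72 without growth factors, 12.01, 11.64 and 11.28 with FGF2 and 11.74 and 11.28 with BMP4. The lowest value with either factor lay above both -GFs values, but the changes did not pass, at 0.74 ± 0.27 with FGF2 (log2; limma adjusted p = 0.165) and 0.61 ± 0.30 with BMP4 (limma adjusted p = 0.408). The other 2 PKP2 probes gave 0.64 and 0.41 with FGF2 and 0.26 and 0.29 with BMP4. With FGF2 and BMP4 the PKP2 values overlapped.

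DSG2, a desmosomal cadherin that is widely expressed in epithelia, read 8.89 and 7.83 without growth factors, 10.50, 10.97 and 10.49 with FGF2 and 10.79 and 10.57 with BMP4 on ILMN_1221153. Every array with a factor was above both -GFs arrays, and the groups with FGF2 and BMP4 overlapped. The log2 fold change was 2.29 ± 0.33 with FGF2 (95% interval 1.52 to 3.07; limma adjusted p = 0.0125) and 2.32 ± 0.36 with BMP4 (1.47 to 3.17; limma adjusted p = 0.0306). BMP4 less FGF2 was 0.03 (95% interval -0.75 to 0.80, log2), an interval that still allows either sign. Leaving out BMP4 replicate 1 ended the call for BMP4, at 2.21 with a limma adjusted p of 0.17. The second tested DSG2 probe, ILMN_1242566, was detected on 6 of 16 arrays, at 6.30 to 7.62 in co-cultures, and was not called at 0.19 with FGF2 or 0.89 with BMP4; the other 2 probes were detected on 0 and 1 arrays.

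ITGB4, the integrin chain particular to hemidesmosomes, read, on ILMN_3144575, 6.85 and 7.45 without growth factors, 8.23, 10.18 and 9.40 with FGF2 and 11.85 and 10.61 with BMP4. The 3 groups did not overlap, although the FGF2 arrays spread over nearly 2 log2 units. The log2 fold change was 4.08 ± 0.65 with BMP4 (95% interval 2.54 to 5.62; limma adjusted p = 0.0328) and 2.13 ± 0.60 with FGF2 (0.72 to 3.53; limma adjusted p = 0.0879). BMP4 less FGF2 was 1.96 ± 0.60 and did not pass (limma adjusted p = 0.214), but it was called with runs of table columns as a block (1.50, limma adjusted p = 0.0621), in 1 fit over all 16 arrays (1.96, 0.0697) and with median scaling (2.10, 0.000867). On its second probe (ILMN_2634689) the values were 5.75 and 6.16 without growth factors, 6.30, 7.31 and 7.30 with FGF2 and 9.77 and 8.48 with BMP4. That probe changed by 3.17 ± 0.50 with BMP4 (limma adjusted p = 0.0337 over all probes), at least 6.02-fold, and its change of 1.01 ± 0.45 with FGF2 did not pass (limma adjusted p = 0.25).

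The ITGB4 calls depended on single arrays. With FGF2 the call was lost without -GFs replicate 1 (log2 fold change 1.83, limma adjusted p = 0.312), -GFs replicate 2 (2.42, 0.197), FGF2 replicate 2 (1.67, 0.179) or FGF2 replicate 3 (2.06, 0.164). With BMP4 it was lost without -GFs replicate 1 (3.78, 0.132), -GFs replicate 2 (4.38, 0.107) or BMP4 replicate 1 (3.46, 0.174). Replicate numbers as a block also ended the ITGB4 calls with BMP4 (4.08, limma adjusted p = 0.116) and FGF2 (2.06, 0.203). Without a filter on detection the FGF2 call was lost too (2.13, limma adjusted p = 0.173). In each of these fits the direction remained. The DSP call with BMP4 held in all 7 fits that left out 1 array (limma adjusted p 0.00501 to 0.0214), as did the DSG2 call with FGF2 (0.0231 to 0.0463).

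ITGA6, the partner chain of ITGB4, which also pairs with ITGB1 in other cells, read 8.03 and 6.45 without growth factors, 8.10, 8.11 and 7.94 with FGF2 and 7.17 and 7.38 with BMP4. The ITGA6 probe used was ILMN_1231492. The 2 -GFs arrays enclosed the BMP4 values, and the FGF2 values overlapped the -GFs range. Neither factor passed, at 0.81 ± 0.42 with FGF2 (log2; limma adjusted p = 0.302) and 0.04 ± 0.46 with BMP4 (95% interval -1.04 to 1.11; limma adjusted p = 0.987). Without -GFs replicate 1 the FGF2 change was 1.60, and without -GFs replicate 2 it was 0.02, each set against the 1 -GFs array left. Its second tested probe (ILMN_1223670) gave 0.30 with FGF2 and 0.28 with BMP4, neither called. Both chains of the same integrin did not order the groups alike, with the ITGB4 group means ordered -GFs, FGF2, BMP4 and the ITGA6 means highest with FGF2.

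**Figure D3:**
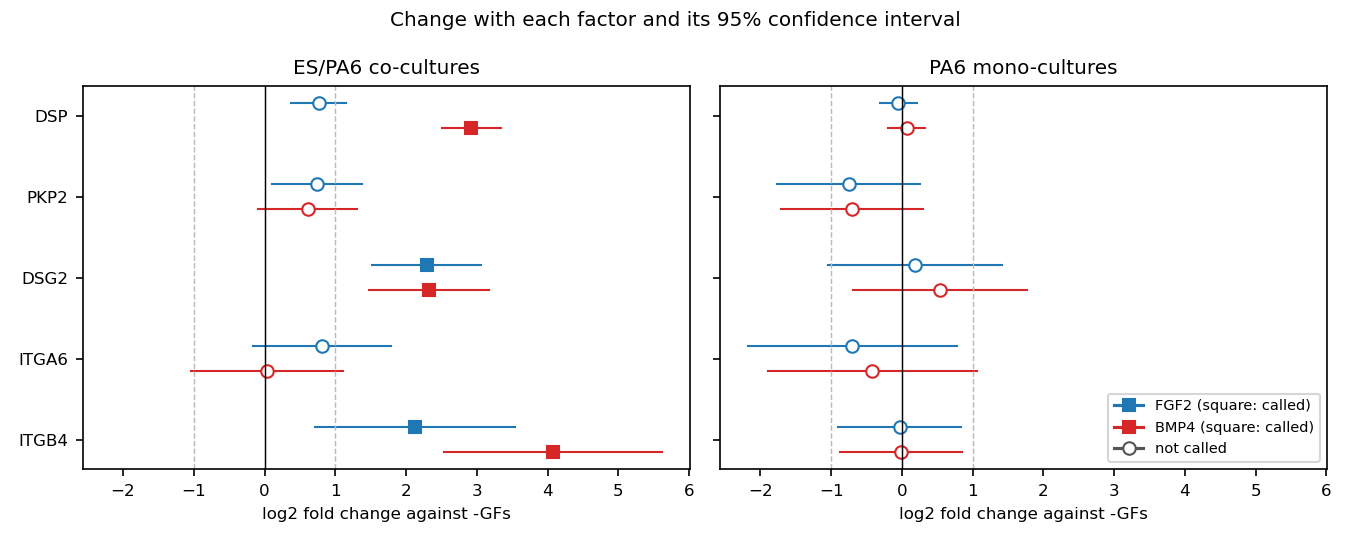
Log2 fold change against -GFs (horizontal axis) with its 95% confidence interval for FGF2 and BMP4 in co-cultures (left) and PA6 mono-cultures (right), with filled squares where the gene was called and dashed lines at the fold limit. In co-cultures DSG2 and ITGB4 were called with both factors and DSP with BMP4, and in PA6 every interval includes 0.

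The columns of the deposited table come in 3 runs, each opening with a PA6 -GFs array, and the labels do not call these batches. Deviations from group means correlated at 0.10 to 0.28 in the 5 pairs of co-cultures that share a run and at -0.28 to 0.10 in the other 11 pairs. In the -GFs and BMP4 groups of 2 arrays the deviations mirror each other, so these pairs are not independent. The changes called between co-cultures kept their direction in each run that held both groups. BMP4 less -GFs in run 3 was 2.89 for DSP, 2.74 for DSG2 and 3.16 for ITGB4 (log2). FGF2 less -GFs in runs 1 and 3 was 1.61 and 2.66 for DSG2 and 1.38 and 1.96 for ITGB4. BMP4 less FGF2 in runs 2 and 3 was 2.23 and 2.00 for DSP and 1.67 and 1.20 for ITGB4. Changes that were not called could turn, as BMP4 less FGF2 did for PKP2 (0.10 and 0.0015, against -0.13 over all arrays) and DSG2 (-0.18 and 0.08).

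In PA6 mono-cultures neither factor moved a desmosome or hemidesmosome gene past the threshold. With FGF2, 0 of the 5 tested genes were called by limma, where 0.027% of all genes were called. With BMP4 0 were called, where 0% of all genes were. At an unadjusted p under 0.05 the counts were also 0 of these 5 genes with each factor, against 1536 and 1334 of all genes. On the probe used for each gene, DSP was not detected on any of the 9 arrays, at 5.45 to 5.71, and its probe ILMN_1224045 was detected on FGF2 replicate 2 alone (6.86). The PKP2 probe used was detected on 3 arrays (7.59 and 7.18 without growth factors, and 6.92 with FGF2) and stood between 5.64 and 6.41 on the others, among them FGF2 replicate 3, where ILMN_2665948 was detected at 8.12. The DSG2 probe used was detected on 2 arrays, at 6.90 with FGF2 and 7.84 with BMP4, and ILMN_1242566 also on -GFs replicate 2, at 7.43. Both genes were thus detected on few PA6 arrays, and not always by the same probe. ITGA6 was detected on 2, at 8.20 without growth factors and 7.08 with BMP4. ITGB4 was the exception, detected on all 9 arrays. It read 8.12, 9.06 and 7.71 without growth factors, 8.24, 8.33 and 8.22 with FGF2 and 7.61, 8.34 and 8.89 with BMP4, and its group means of 8.26 to 8.30 differed by less than the spread within groups.

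Set against PA6 alone, co-cultures read far higher with every treatment on the PKP2 probe and on the DSG2 probe used. The comparison of both kinds of culture called 3 of the 5 genes in -GFs cultures, 4 under FGF2 and 4 under BMP4, where 44.1%, 46.4% and 42.4% of all genes were called, and the sizes below are given as a description. PKP2 was higher in co-cultures by 4.0 ± 0.44 without growth factors, 5.50 ± 0.40 under FGF2 and 5.32 ± 0.44 under BMP4 (log2; limma adjusted p = 3.4e-06, 4.41e-08 and 3.1e-07), the last at least 25.3-fold. DSG2 was higher by 2.24 ± 0.54, 4.34 ± 0.49 and 4.01 ± 0.54 in the same order (limma adjusted p = 0.0026, 2.91e-06 and 2.47e-05), the first at least 3.19-fold. The second tested DSG2 probe, ILMN_1242566, did not show this without growth factors (-0.10) or with FGF2 (-0.06), neither called, and gave 1.03 with BMP4 (limma adjusted p = 0.0461 over all probes). ITGA6 was called with FGF2 (2.19 ± 0.59, at least 2.37-fold, limma adjusted p = 0.00473). It was not called without growth factors (0.68 ± 0.66) or with BMP4 (1.14 ± 0.66), where PA6 -GFs replicate 3 and PA6 BMP4 replicate 1 were high for their groups. Without PA6 -GFs replicate 3 ITGA6 was called in both (1.50, limma adjusted p = 0.0191, and 1.14, 0.0432), and without PA6 BMP4 replicate 1 it was called with BMP4 (1.61, 0.0573). With BMP4 it was also called with median scaling (1.40, 0.0347) and on the second tested probe, ILMN_1223670 (1.01, 0.0203 over all probes; at least 1.12-fold).

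DSP, on the probe used, differed between the kinds of culture with BMP4 by 3.01 ± 0.13 (log2; limma adjusted p = 4.03e-10; at least 3.48-fold). With FGF2 the probe was not detected in PA6 and the co-culture mean of 6.49 lay below the detection levels of these PA6 arrays (6.69 to 6.89), so no fold can be given. The fitted difference at that signal was 0.97 ± 0.11, under the fold limit (limma adjusted p = 5e-06), and passed it without co-culture FGF2 replicate 1 (1.01, limma adjusted p = 1.63e-05) or PA6 FGF2 replicate 1 (1.01, 2.36e-05). Without growth factors neither kind of culture was detected. ITGB4 was the 1 gene lower in co-cultures, by -1.15 ± 0.55 without growth factors (limma adjusted p = 0.0856), with a 95% interval of -2.34 to 0.04. The 2 co-culture values lay below the lowest PA6 value, 7.71. The call was lost, with limma adjusted p of 0.1 to 0.344, without any 1 of co-culture -GFs replicates 1 (-0.85) and 2 (-1.45), PA6 -GFs replicates 1 (-1.24) and 2 (-0.77), or PA6 FGF2 replicates 1 and 3 (-1.15 each). Within runs 1 and 3 the ITGB4 difference was -1.27 and -0.26, and the second ITGB4 probe was called at -1.54 (limma adjusted p = 0.0118 over all probes). That probe was not detected in these co-cultures, so the bound is at least 1.94-fold lower. With FGF2 it was 1.01 ± 0.49 (limma adjusted p = 0.0852), with overlapping groups, and it lost the call without FGF2 replicates 2 (0.55) or 3 (0.94) of the co-cultures or any of the 3 PA6 FGF2 replicates (replicate 1, 1.0; replicate 2, 1.04; replicate 3, 0.99; limma adjusted p 0.129 to 0.345 over these 5 fits). The second probe gave 0.01 with FGF2 (limma adjusted p = 0.981), and within runs 1, 2 and 3 the difference was -0.014, 1.85 and 1.19. With BMP4 it was 2.95 ± 0.55 (limma adjusted p = 0.000404).

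Because PA6 cells expressed ITGB4 on their own, the response to a factor was also set against that of PA6 alone. The change with BMP4 was larger in co-cultures than in PA6 by 4.10 ± 0.78 for ITGB4 (log2; limma adjusted p = 0.0121) and by 2.85 ± 0.18 for DSP (limma adjusted p = 2.13e-06), 2 of the 5 genes where 4.23% of all genes were called. The DSP probe was not detected in -GFs co-cultures or in PA6 with or without BMP4, so the size for DSP is set by background-level signal on 3 of its 4 terms. For ITGB4 the co-culture change was 4.08 and the PA6 change -0.01, and the second probe gave 3.87 ± 0.67 for the difference (limma adjusted p = 0.00716). For FGF2 limma called 0 of the 5 genes, with 7.9% of all genes called, although 4 of the 5 had an unadjusted p under 0.05. The differences were 0.81 ± 0.17 for DSP (limma adjusted p = 0.013, under the fold limit and mostly at background-level signal), 2.10 ± 0.73 for DSG2 (0.107), 2.16 ± 0.74 for ITGB4 (0.104), 1.49 ± 0.59 for PKP2 (0.159) and 1.52 ± 0.89 for ITGA6 (0.349). For DSG2 and ITGB4 these values were close to the limit of 0.1, and single arrays moved them across it. DSG2 was called without co-culture -GFs replicate 1 (2.63, limma adjusted p = 0.0993), PA6 -GFs replicate 2 (2.37, 0.0966), PA6 FGF2 replicate 2 (2.39, 0.0926), or BMP4 replicates 2 (2.10, 0.0474) or 3 (2.10, 0.0533) of PA6. ITGB4 was called without co-culture FGF2 replicate 1 (2.68, 0.0331), either co-culture BMP4 replicate (2.16, 0.0933), PA6 -GFs replicate 3 (2.45, 0.0976) or PA6 BMP4 replicate 1 (2.16, 0.0966). PKP2 was called without PA6 -GFs replicate 1 (1.98, 0.0351) or PA6 FGF2 replicate 2 (1.88, 0.0728). For BMP4 PKP2 was called without PA6 -GFs replicate 1 (1.80, 0.0974) and DSG2 without PA6 BMP4 replicate 2 (2.36, 0.0735).

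Ordered by group mean, the genes ranked the 6 groups differently. DSP ran from BMP4 co-cultures (8.65) through FGF2 co-cultures (6.49) to the other 4 groups (5.52 to 5.73), whose neighbours overlapped. PKP2 was highest with FGF2 (11.64) and BMP4 (11.51) in co-cultures, which overlapped, then in -GFs co-cultures (10.90), and the 3 PA6 groups (6.15 to 6.90) overlapped with their neighbours. DSG2 was highest with BMP4 (10.68) and FGF2 (10.65) in co-cultures, which overlapped, before -GFs co-cultures (8.36), whose lower array lay at 7.83 beside 7.84 on the highest PA6 BMP4 array. ITGA6 was highest in FGF2 co-cultures (8.05), and from BMP4 co-cultures (7.27) downward every neighbouring pair overlapped. ITGB4 was highest in BMP4 co-cultures (11.23), and its lowest group was that of the co-cultures without growth factors (7.15), below all 3 PA6 groups.

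Over the 7 co-culture arrays, which share the 3 treatments and so are not a sample of independent conditions, the strongest pairing was of DSP with ITGB4 (Pearson r = 0.88), followed by PKP2 with DSG2 (0.81) and DSG2 with ITGB4 (0.77). ITGA6 ran apart from DSP (-0.17) and ITGB4 (-0.05). The mean standardized profile of the 5 genes was lowest on -GFs replicates 1 (-0.64) and 2 (-1.43) and highest on BMP4 replicate 1 (0.74). DSG2 followed it most closely (r = 0.98) and ITGA6 least (0.49). The 10 other genes most like that profile by Pearson correlation were IGFBP3, A730027B03RIK, EHD4, WDR1, DUS4L, NHLRC1, TFPI, C130035G06RIK, SMARCD2 and ZFP809, with r of 0.959 to 0.980 over the 7 arrays. These correlations describe 7 arrays and carry no test.

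Other genes of the same structures were taken from lists of known components. Of 12 further desmosome genes, all in the table, 4 were tested and the rest were not detected on all arrays of any group. FGF2 called 1 of the 4 higher (median change 0.45 on the log2 scale, against -0.06 over all genes) and BMP4 called 2 (median 0.89 against -0.0015 over all genes). PKP3, another plakophilin, was not detected without growth factors (5.73 and 6.32), read 7.23 to 7.60 with FGF2 and 8.52 and 9.22 with BMP4. It rose by 1.43 ± 0.28 with FGF2 (log2; limma adjusted p = 0.0329; at least 1.88-fold) and by 2.85 ± 0.31 with BMP4 (limma adjusted p = 0.011), the latter at least 5.04-fold. PPL (periplakin), a relative of desmoplakin, rose from an undetected level by 1.39 ± 0.21 with BMP4 (limma adjusted p = 0.0262; at least 1.44-fold) to 6.91 and 7.22, and PA6 cells without growth factors held more, at 8.19 to 8.93. EVPL (envoplakin) was not called, at 0.56 with FGF2 and 0.39 with BMP4, nor was PKP4, at 0.26 and 0.05.

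Of 10 further names of hemidesmosome and epithelial laminin genes, older names of the same gene included, 8 were in the table and 7 were tested. FGF2 called 1 higher (median -0.32 against -0.06 over all genes) and BMP4 2 (median 0.19), so most of these genes were not called. LAMA3, a chain of the laminin to which the ITGA6 and ITGB4 integrin binds, was not detected without growth factors (5.59 and 5.68) and read 7.52 to 7.86 with FGF2 and 9.23 and 9.63 with BMP4. Its rise was 2.04 ± 0.20 with FGF2 (limma adjusted p = 0.00476; at least 2.20-fold) and 3.79 ± 0.22 with BMP4 (limma adjusted p = 0.0012; at least 7.42-fold). COL17A1, the transmembrane collagen of hemidesmosomes, rose with BMP4 by 3.40 ± 0.35 (limma adjusted p = 0.00925; at least 6.05-fold), to 8.96 and 9.31 from 5.69 and 5.79, and its change with FGF2 was 0.24. COL17A1 passed the detection filter only through the BMP4 co-cultures. The plakins DST and PLEC1, which tie hemidesmosomes to keratin, were not called and stood at -0.33 and -0.33 with FGF2 and -0.23 and 0.19 with BMP4. Of 8 other integrin subunits 5 were tested, and limma called 0 with either factor, against 1 at an unadjusted p under 0.05 with each. That subunit was ITGA5 in both, at 0.83 with FGF2 (limma adjusted p = 0.0381, under the fold limit) and 0.57 with BMP4.

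**Figure D4:**
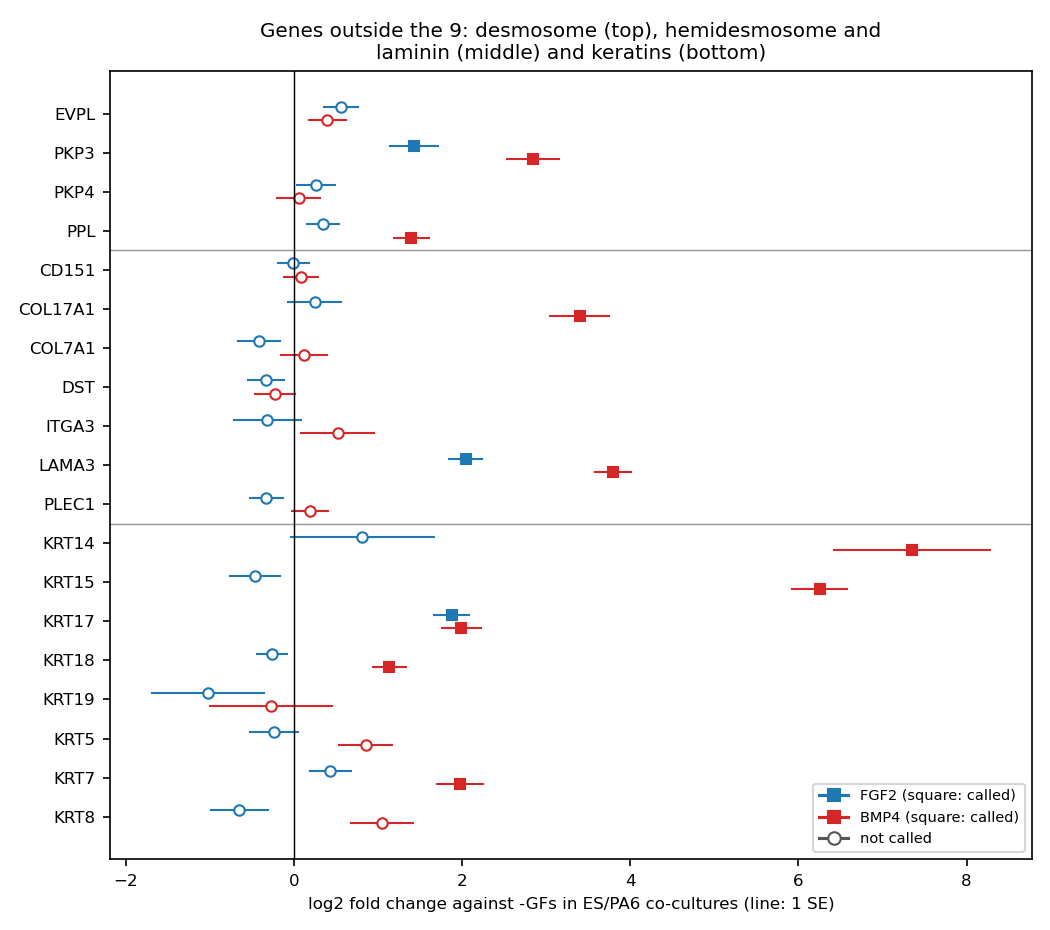
Log2 fold change against -GFs in co-cultures, with a line of 1 SE to either side, for tested desmosome genes, hemidesmosome and laminin genes and keratins outside the 9, with filled squares where the gene was called. PKP3, LAMA3 and KRT17 were called with both factors, and COL17A1, PPL, KRT14, KRT15, KRT7 and KRT18 with BMP4.

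Keratins, the filaments that both structures anchor, were all 8 tested. BMP4 called 5 higher (median 1.55 against -0.0015 over all genes) and FGF2 1 (median -0.25). Over all genes 2.28% and 5.07% were called higher. KRT5, KRT14 and KRT15 passed the detection filter only through the BMP4 co-cultures. KRT14, a basal keratin of stratified epithelia, was not detected without growth factors (5.66 and 6.27) and read 12.47 and 14.15 with BMP4, a change of 7.35 ± 0.93 (limma adjusted p = 0.0174; at least 110-fold). KRT15 rose by 6.25 ± 0.33 with BMP4 (limma adjusted p = 0.000741), and KRT17, not detected without growth factors, rose with both, by 1.87 ± 0.21 with FGF2 and 1.99 ± 0.23 with BMP4 (limma adjusted p = 0.00718 and 0.0132; at least 2.68-fold and 2.90-fold). Among 14 names of regulators of epithelial genes, 10 were in the table and 8 tested. FGF2 called 5 higher, of which ELF3 (3.19), KLF5 (2.67), CDH1 (E-cadherin, 2.37) and TCFAP2C (2.25) changed most. The median change with FGF2 was 1.75, and 5.07% of all genes were called higher. With BMP4 the median was 1.91 and 3 were called higher, where 2.28% of all genes were. These were TRP63 (the p63 factor of stratified epithelia, 4.99 ± 0.34, limma adjusted p = 0.00251, at least 20.3-fold from an undetected level), TCFAP2C (2.02) and KLF5 (1.86). ELF3 and CDH1 were not called with BMP4, although their means were 9.26 and 10.80 there, against 7.30 and 9.15 without growth factors. Of 5 repressors of epithelial genes, BMP4 called SNAI2 (2.16) and TWIST1 (1.13) higher and FGF2 called ZEB2 lower (-1.16).

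Markers of other cell types moved with the same groups. The summed intensity of 6 epidermal markers was 1328 to 1692 without growth factors, 5775 to 6252 with FGF2 and 17469 to 35355 with BMP4, and all 6 were detected on both BMP4 arrays, whereas KRT14, KRT5, TRP63 and SFN were on neither -GFs array. With FGF2, 1 of the 6 was detected on all arrays and KRT5 and SFN on none. The FGF2 sum was mostly TCFAP2C, at a mean of 12.45 (log2) against 10.20 without growth factors. The median change of the 6 was 0.37 with FGF2 and 4.10 with BMP4. Of these 6, 5 also stand among the keratins and regulators above. The sum of 6 pluripotency markers was 10282 to 10517 without growth factors, 47796 to 58252 with FGF2 and 17788 to 32914 with BMP4. That of 7 neural markers was 39363 to 51015, 23352 to 25510 and 20736 to 25082 in the same order, with PAX6 not detected in any of the 3 groups. The 7 endothelial markers summed to 535 to 638, 2110 to 3584 and 1865 to 2123, with 1, 2 and 3 of them detected on all arrays of the group. CDH5, TIE1 and ICAM2 were detected on no array with -GFs or FGF2. For 5 cardiac muscle markers, relevant to PKP2, the sums were 656 to 664, 1039 to 1251 and 1169 to 1268, with MYH7 not detected in any of these groups. Trophoblast markers (4) stayed at 212 to 376, with ELF5, EOMES and HAND1 not detected. Endoderm markers (5) summed to 1354 to 1875, 1037 to 1455 and 1667 to 2183, with SOX7 not detected. In PA6 alone the same endoderm markers summed to 7140 to 12576. The part of these cell types in the levels of the desmosome and hemidesmosome genes was not tested.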

How the data were processed

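RNA of 16 cultures had been hybridized to 1 Illumina array each. The deposited table holds, per probe and array, an average bead intensity that the authors did not normalize between arrays, exported with GenomeStudio 2011.01, and a detection p-value against negative control beads, as the deposited header names it. The authors used cubic spline normalized intensities, which were not used here. The table gives no genome build.

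Intensities were background corrected with normexp from the detection p-values, given an offset of 16, quantile normalized and transformed to log2 across all 16 arrays (the steps of neqc, limma 3.58.1, R 4.3.3). Probes detected (p under 0.05) on all arrays of at least 1 group were kept, with the probe of the largest mean for each gene. Linear models (limma) were fitted to 7 co-culture arrays, to 9 PA6 arrays, and to all 16 for comparisons between kinds of culture, over 14829 genes, with Benjamini-Hochberg adjustment over all of them. Errors are standard errors (SE) from the fits. "At least" folds were computed against the lowest normalized signal among probes detected on each array of the undetected group. The fits were tested on simulated data.

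The genes and lists, and the tests, were chosen with earlier results of these data known. Named genes are the 9 genes, up to 4 called genes with the largest change per list and comparison, and the 10 genes with the most similar profile. Uncalled components of desmosomes and hemidesmosomes were named in addition, after their values were seen. Promoters came from a RefSeq table (GRCm38.p6) and were matched by symbol. Samples were grouped by their labels, and none was left out. A component of the lists is not reported here and was left out of their counts. Alternatives covered scaling, background, offset, detection filter, probe choice, thresholds, variance prior, 1 fit over all arrays, blocks, and leaving out each array.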

Additional observations from a re-analysis of the deposited data

Results flagged for a closer look

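The change with BMP4 differed between the kinds of culture for 2 desmosome and hemidesmosome genes by the test of the difference itself (limma, all 16 arrays). For DSP the co-culture change exceeded the PA6 change by 2.85 on the log2 scale (adjusted p = 2.13e-06), with the DSP probe used not detected on any PA6 or -GFs co-culture array, so that this size is set by background-level signal in 3 of its 4 terms and only the rise in co-cultures has a bound (at least 4.33-fold). For ITGB4 the excess was 4.10 (adjusted p = 0.0121), with ITGB4 detected on all 9 PA6 arrays. With 2 or 3 arrays in each group, no formal outlier test was made of single values.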

How the results depend on the processing

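Of the changes of the 5 tested genes under the alternatives, 1083 kept their direction and side of the threshold, 35 lost the call, 38 gained it and 24 turned. The FGF2 count in co-cultures (2) was 3 with no minimum fold change, where DSP was called too. It was 1 with no filter on detection, with detection required on all 16 arrays (ITGB4 alone is then tested), at an adjusted p of 0.05 and with the replicate block. It was also 1 without co-culture FGF2 replicates 2 or 3. The BMP4 count (3) was 1 with detection on all 16 arrays and with the replicate block, and 1 to 3 without single arrays. For BMP4 against FGF2 (1) it was 2 with median scaling, with all 16 arrays in one fit and with runs of columns as a block, and 0 with detection on all 16 arrays and with the replicate block. For co-culture against PA6 (3, 4 and 4) it was 1 with detection on all 16 arrays in each, and ITGB4 lost the call with no background correction, offset 50, no filter on detection or an adjusted p of 0.05 in -GFs (adjusted p = 0.142, 0.1, 0.159 and 0.0856) and FGF2 cultures (0.0649, 0.0753, 0.156 and 0.0852; 0.79 and 0.95 under the fold limit in the first pair), with runs as a block in -GFs (-0.88) and with median scaling in FGF2 cultures (0.98). For the difference of FGF2 effects (0) it was 2 with no background correction, detection p under 0.01 or a variance trend, and 1 with median scaling, offset 50, detection on all 16 arrays, no minimum fold, the replicate block or runs as a block, and 0 to 2 without single arrays. For the difference of BMP4 effects (2) it was 1 with detection on all 16 arrays. The count of co-culture against PA6 rose to 5 under FGF2 with no minimum fold change and under BMP4 with median scaling.

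With the replicate block DSG2 and ITGB4 lost the BMP4 call (adjusted p = 0.107 and 0.116), ITGB4 lost the FGF2 call (0.203) and DSP lost the call of BMP4 against FGF2 (0.11). Over all genes the block moved the counts from 556 to 258 with BMP4, from 214 to 11 for BMP4 against FGF2 and from 4 to 23 with FGF2 in PA6. Runs as a block moved them to 596, 560 and 23. Over the alternatives other than leaving out arrays, the calls among all genes ran from 324 to 1675 with FGF2 (1100), from 32 to 870 with BMP4 (556), from 2 to 574 for BMP4 against FGF2 (214), and in PA6 from 1 to 32 (4) and 0 to 6 (0). Between kinds of culture they ran from 3480 to 10123 (6540), 3575 to 10860 (6874) and 3236 to 9981 (6283), and for the differences of effects from 451 to 1627 (1172) and 106 to 751 (628). The labels do not tie the numbers to a shared batch, and deviations from group means correlated at -0.20 to 0.28 between co-cultures of the same number, so the numbers were not taken as pairs. In PA6 the range was 0.07 to 0.20, above every other pair (at most -0.01), a hint from the data. Deviations within a group cancel, which ties the values of the pairs together and pushes the others down.

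Median scaling moved the median of all genes to -0.21 with FGF2 and 0.29 for BMP4 against FGF2, and the share of higher calls from 52.3% to 63.8% for BMP4 against FGF2 and from 62.3% to 75.2% and 61.6% to 77.4% for the differences of FGF2 and BMP4 effects. Under it ITGB4 was called for BMP4 against FGF2 (2.10, adjusted p = 0.000867), PKP2 turned to 0.18 there and DSP to -0.033 between -GFs cultures. ITGA6 with BMP4 turned to -0.0040 with no background correction and -0.0026 with offset 50, and DSG2 for BMP4 against FGF2 to -0.053 with the replicate block. Without single arrays, uncalled changes that turned ranged, in co-cultures, from -0.75 to 0.83 (ITGA6 with BMP4), and for BMP4 against FGF2 from -0.36 to 0.10 (PKP2) and -0.079 to 0.18 (DSG2). In PA6 with FGF2 they ranged from -0.10 to 0.0056 (DSP), -0.10 to 0.44 (DSG2), -1.19 to 0.12 (ITGA6) and -0.33 to 0.35 (ITGB4). In PA6 with BMP4 they ranged from -0.043 to 1.12 (DSG2), -0.91 to 0.40 (ITGA6) and -0.32 to 0.37 (ITGB4). ITGA6 ranged from -0.11 to 1.50 between -GFs cultures and from -0.36 to 1.25 for the difference of BMP4 effects. The causes were not tested. Signal near background limits DSP, PKP2, DSG2 and ITGA6 in PA6, and JUP, PKP1, DSC2 and PERP throughout.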
